A study of Mus musculus with 18 samples.

Results

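The 40 genes described here encode proteins that carry a cell through G2 and mitosis. They were taken as a list of symbols and matched to Ensembl IDs through GENCODE M21. All 40 were found among the 55487 genes of the count table, and all 40 were among the 13150 genes left by the filter on low counts. They comprise 6 genes of the cyclin and CDK engine, 2 of the anaphase-promoting complex (APC/C) pathway, 7 mitotic kinases and checkpoint genes, 3 centromere and kinetochore genes, 8 kinesins, 4 spindle assembly genes, 4 cytokinesis genes and 6 genes of chromosome condensation. CD8+ T cells of wild-type C57BL/6J mice, taken from spleen and lymph nodes, had been separated by surface 41BB (CD137), a costimulatory receptor that belongs to the TNF receptor family. The 41BB+ cells are the Tpam cells of the study and the 41BB- cells are its conventional CD8+ T cells. The 6 groups are 41BB+ cells without culture (0 h) and after 24 and 72 h of ex vivo activation, and 41BB- cells at the same 3 times, with 3 libraries in each group. Activation was by beads that carry antibodies to CD3 and CD28. The 41BB label gives the state at the sort, not after culture, and 41BB is itself induced by activation. No label states the age or sex of the mice, or whether each of the biological triplicates came from 1 animal or a pool.

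A resting T cell stays outside the cell cycle, and stimulation through the T cell receptor and CD28 brings it in. Entry into mitosis is driven by Cdk1 bound to A-type and B-type cyclins, once Cdc25 phosphatases have removed its inhibitory phosphates. Polo-like and Aurora kinases then build the spindle with kinesin motors, condensin and topoisomerase compact the chromosomes, the spindle checkpoint holds anaphase until kinetochores are attached, and the APC/C with Cdc20 ends mitosis by marking securin and cyclin B for destruction. Most of these genes are repressed in resting cells and transcribed late in the cycle, through CCAAT boxes bound by NF-Y and through an element named the cell cycle genes homology region (CHR), which is bound by the DREAM complex in resting cells and by B-Myb and FoxM1 complexes in cycling cells.

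Libraries held 3085241 to 4239795 counts (median 3524157.5), with 16503 to 22816 genes detected. CPM here is a gene's count as a share of all counts in its library, times 1e+06, and errors are SD over 3 libraries. At 0 h, Tnfrsf9, which encodes 41BB, stood at 389 ± 27.5 CPM in 41BB+ cells and 6.74 ± 1.74 CPM in 41BB- cells, as the sort implies. The 5 markers of CD8 T cells summed to 1629.8 to 1832 CPM in 41BB+ and 2503 to 2884 CPM in 41BB- libraries at 0 h, and none was at 0 in any group. Some markers of other cells moved with the groups. The 5 B cell markers reported here summed to 95.2 to 98.4 CPM in 41BB+ cells and 232 to 256 CPM in 41BB- cells at 0 h, with Cd79a at 0 in 41BB+ cells and none at 0 in 41BB- cells. At 72 h the same 5 summed to 531 to 592 CPM in 41BB+ cells, with Ms4a1 at 0, and to 420 to 500.5 CPM in 41BB- cells, with none at 0. The 3 CD4 helper markers summed to 20.5 to 28.5 CPM in 41BB+ cells and 39.8 to 50.6 CPM in 41BB- cells at 72 h, with none at 0, and the 5 myeloid markers reached 59.6 CPM in 1 library of 41BB+ cells at 24 h, where Itgam and Cd14 were at 0. The 3 stromal and endothelial markers (Col1a1, Pecam1 and Pdgfra) summed to 102 to 133 CPM in 41BB+ cells and 210.0 to 262 CPM in 41BB- cells at 0 h, with none at 0. At 24 h they summed to 14.3 to 35.3 CPM in 41BB+ cells, with Pdgfra at 0, and to 35.8 to 43.4 CPM in 41BB- cells, and at 72 h to 207 to 281 CPM in 41BB+ cells, with Col1a1 at 0, and to 106 to 122 CPM in 41BB- cells. The 3 plasma cell markers summed to 20.2 to 31.0 CPM in 41BB+ cells and 46.2 to 48.2 CPM in 41BB- cells at 72 h, with none at 0. Whether these sums come from other cells or from the sorted cells was not tested, nor was their part in the results below. Mitochondrial genes held 8.70 to 8.75% of counts in 41BB+ and 8.74 to 11.4% in 41BB- libraries at 0 h, 6.15 to 6.76% in 41BB+ and 6.17 to 6.81% in 41BB- libraries at 24 h, and 10.5 to 11.4% in 41BB+ and 8.84 to 9.56% in 41BB- libraries at 72 h, where the populations did not overlap.

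The 40 genes together made up a small share of the RNA at 0 h and a larger one after activation. Their summed level at 0, 24 and 72 h was 1123 ± 60.7, 6355 ± 212 and 8264 ± 905 CPM in 41BB+ cells, and 848 ± 40.1, 3733 ± 378 and 10057 ± 83.9 CPM in 41BB- cells. Smc4, a condensin subunit, made up most of the sum at 0 h. Without it the sums at the 3 times were 417 ± 80.8, 5809.8 ± 206 and 7085 ± 867 CPM in 41BB+ cells and 284 ± 26.9, 3231 ± 318 and 9264 ± 96.2 CPM in 41BB- cells. The order of the populations was thus 41BB+ above 41BB- at 0 and 24 h, and 41BB+ below 41BB- at 72 h, with no overlap of libraries at any time. At 72 h, replicate 2 of the 41BB+ cells stood at 7221 CPM, lower than the other libraries of its group at 8734 and 8838 CPM. In bulk libraries, a change in the share of cells in G2 and mitosis and a change in the RNA made per such cell cannot be told apart.

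**Figure D1:**
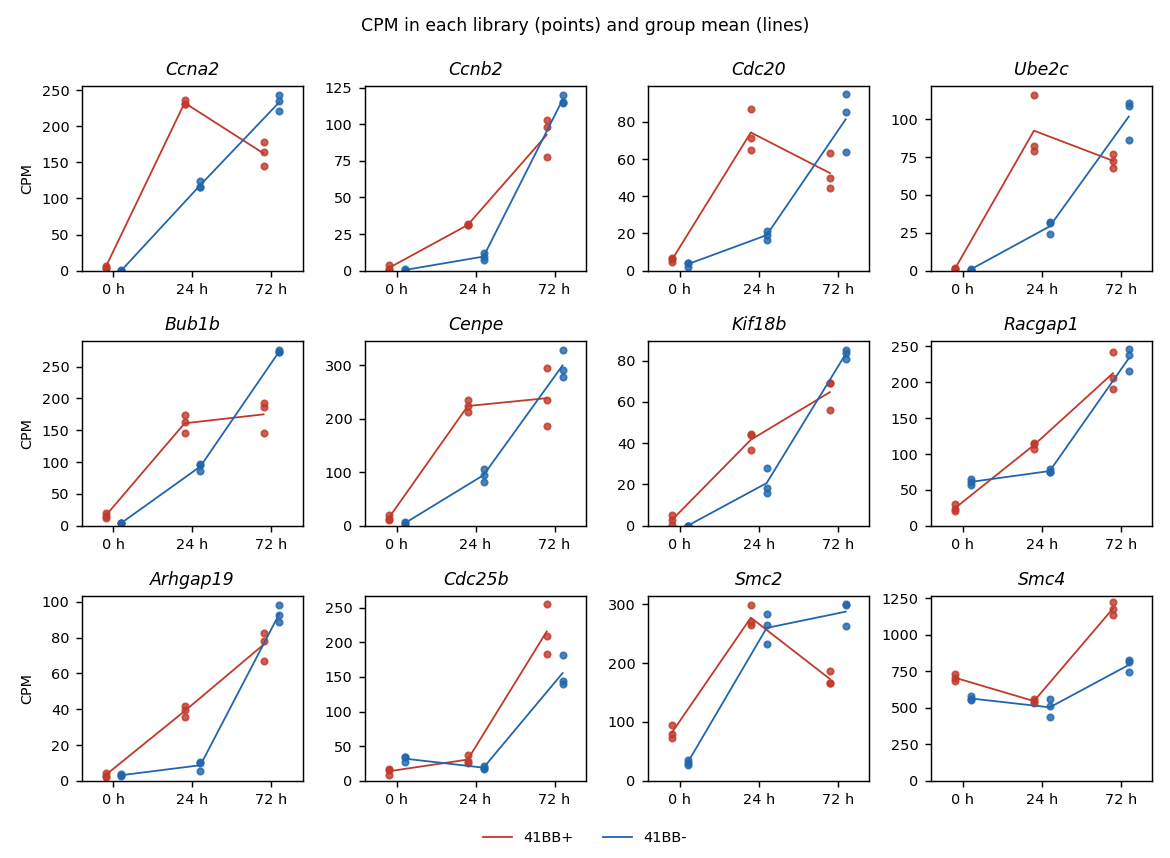
Level in CPM (y axis, linear from 0, with its own scale in each panel) against time of activation (x axis, 0, 24 and 72 h, evenly spaced) for 12 of the genes, in 41BB+ (red) and 41BB- (blue) cells. Points are libraries, 3 per group, and lines join group means. Arhgap19 shows the widest gap by ratio at 24 h, where 41BB+ cells averaged 39.0 CPM and 41BB- cells 8.70 CPM, and in most panels the 41BB- line crosses above the 41BB+ line by 72 h.

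Scaled by exon length, so that genes can be compared with each other, Mki67, Smc4 and Top2a were the 3 most abundant members in both populations at 24 and at 72 h, and Cdc25c the least abundant. The median level over the 40 genes at 0, 24 and 72 h was 1.12, 19.3 and 23.4 CPM per kb in 41BB+ cells and 0.457, 10.5 and 31.2 CPM per kb in 41BB- cells. At 0 h, 21 members exceeded 1 CPM per kb in 41BB+ cells and 12 did in 41BB- cells. The highest of the 6 group means was that of 41BB- cells at 72 h for 37 members, and that of 41BB+ cells at 72 h for the other 3, which were Cdc25b, Cenpa and Smc4. This ranking of means was not tested, and some of the 37 were near ties. Ccna2, for example, averaged 233 ± 11.6 CPM in 41BB- cells at 72 h and 232 ± 3.05 CPM in 41BB+ cells at 24 h. The mean level of 41BB- cells at 24 h was a median 0.338 of their own level at 72 h and lay below it in 40 of 40 members. The corresponding ratio in 41BB+ cells was a median 0.832, and 16 of 40 members were above 1, so that their mean CPM was higher at 24 h than at 72 h. Some of these ratios were close to 1 and depend on the scaling. In the edgeR fit used below, which rescales the libraries, 12 members had a negative log2 fold change from 24 to 72 h and 4 were called.

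**Figure D2:**
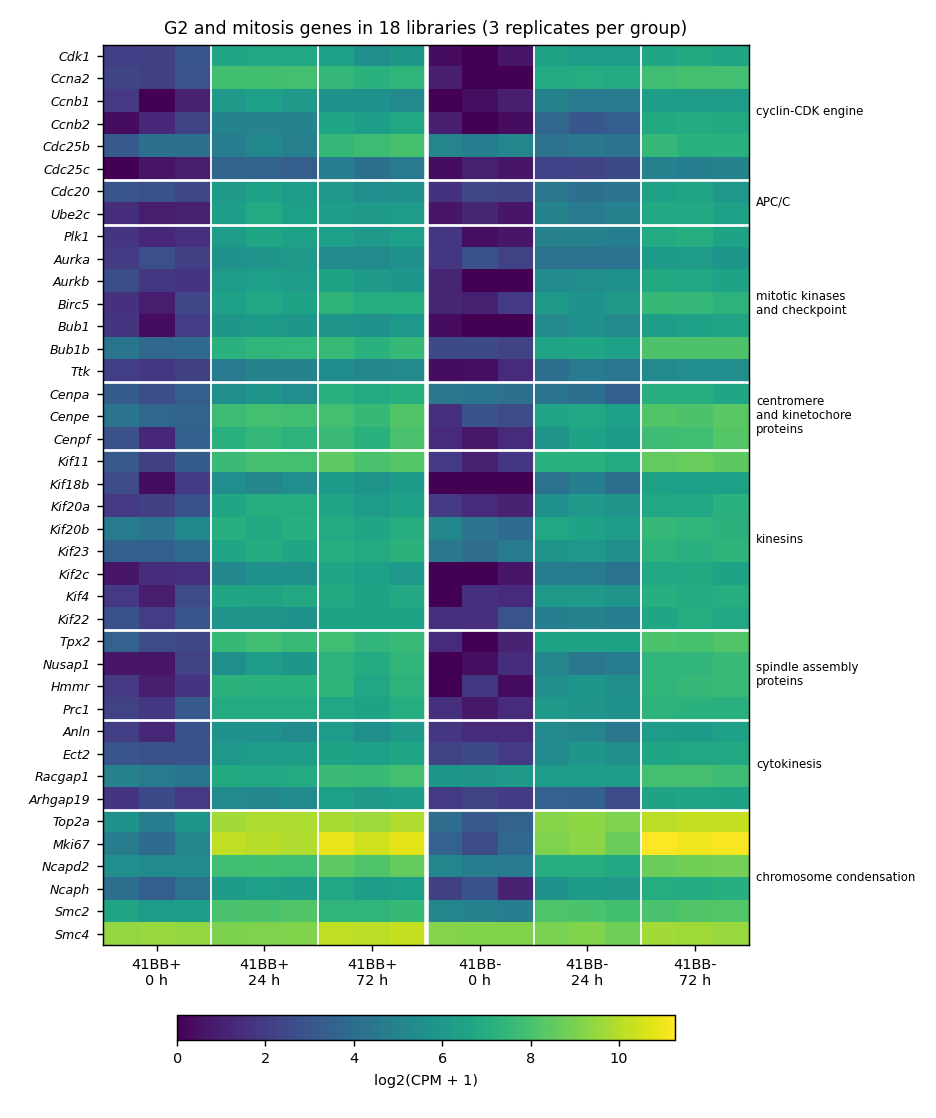
Heat map of log2(CPM + 1) for the 40 genes (rows, grouped by role) in the 18 libraries (columns, 3 per group, 41BB+ cells on the left and 41BB- cells on the right). Smc4 is bright in all groups, while most rows are dark at 0 h and brightest in the 41BB- columns at 72 h, where 37 of the 40 genes had their highest group mean.

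What the members share in sequence is seen in their promoters. RefSeq promoter windows on GRCm38.p6, 250 bases before to 50 after the transcription start, were at hand for 34 of the 40 members (36 windows). The motif CCAAT, searched on both strands, was in 83.3% of the members' windows, against 37.4% of all 32851 windows. The motif TTTGAA, the core of the CHR, was in 80.6% of the members' windows, against 17.9% of all, and both motifs together were in 72.2%, against 6.95% of all. A match of one motif can share at most 1 base with a match of the other. TTTGAA lay within 50 bases of the start in 69.4% of the members' windows and in 4.94% of all windows. Among 64 windows of 55 other G2 and mitosis genes, CCAAT was in 65.6%, TTTGAA in 57.8% and both in 40.6%. TTTGAA within 50 bases of the start was in 45.3% of these windows. Each of these shares lay between that of the members and that of all windows. In the windows of 21 DNA replication genes, transcribed earlier in the cycle, TTTGAA was in 11.5% and CCAAT in 57.7%. The 7 matched members without TTTGAA were Ccnb1, Cdc25b, Birc5, Bub1, Cenpe, Nusap1 and Ncaph, and the 6 without CCAAT were Birc5, Kif20b, Kif2c, Nusap1, Anln and Ncaph. The 6 members with no entry in the promoter table were Ccna2, Cdc25c, Aurkb, Kif20a, Tpx2 and Smc4. A match is a description of the letters, not of binding.

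**Figure D3:**
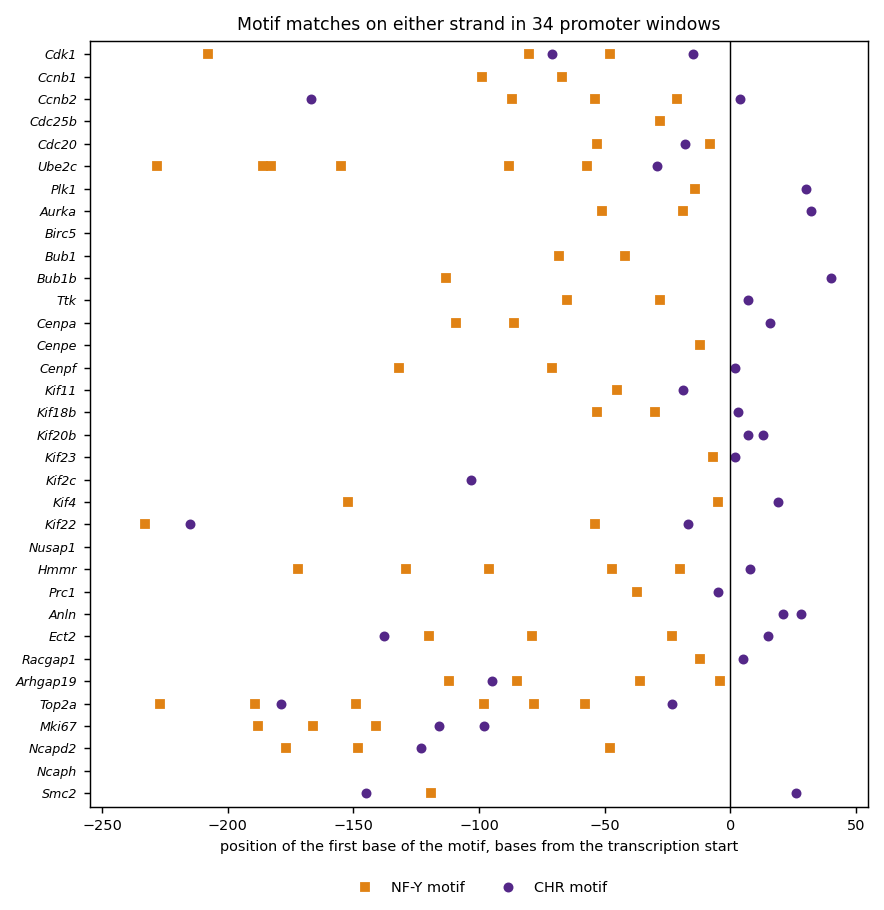
Position in bases from the transcription start (x axis) of NF-Y motifs (CCAAT, squares) and CHR motifs (TTTGAA, circles) on either strand in 1 promoter window of each of the 34 matched genes (rows). The CHR motifs gather near the start, with 69.4% of all member windows holding one within 50 bases of it.

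The 180 bases from 150 before to 30 after the start are shown for 4 of the 6 matched members with the largest log2 fold change between the populations at 24 h (Arhgap19, Cdc20, Ccnb2 and Ube2c, with Cenpa and Aurka not shown), for Cdc25b, which stands apart in its time course, and for Smc2, which did not pass the test at 24 h. They were picked after their values were seen. The stretches lie on GRCm38.p6 with Arhgap19 at chr19:41802055-41802234 on the minus strand, Cdc20 at chr4:118437314-118437493 on the minus strand, Ube2c at chr2:164769779-164769958 on the plus strand, Ccnb2 at chr9:70421525-70421704 on the minus strand, Cdc25b at chr2:131186798-131186977 on the plus strand, and Smc2 at chr4:52439071-52439250 on the plus strand. Each is printed 5′ to 3′ on the gene's own strand. Capitals mark CCAAT and TTTGAA, or ATTGG and TTCAAA where the motif is on the other strand.

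Arhgap19: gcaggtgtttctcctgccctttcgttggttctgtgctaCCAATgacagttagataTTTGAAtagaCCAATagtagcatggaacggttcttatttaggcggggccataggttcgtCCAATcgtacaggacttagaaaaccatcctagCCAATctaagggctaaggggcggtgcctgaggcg

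Cdc20: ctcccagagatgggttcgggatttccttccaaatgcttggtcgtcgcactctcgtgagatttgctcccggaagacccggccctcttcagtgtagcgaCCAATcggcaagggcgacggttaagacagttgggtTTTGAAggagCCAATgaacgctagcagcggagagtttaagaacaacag

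Ube2c: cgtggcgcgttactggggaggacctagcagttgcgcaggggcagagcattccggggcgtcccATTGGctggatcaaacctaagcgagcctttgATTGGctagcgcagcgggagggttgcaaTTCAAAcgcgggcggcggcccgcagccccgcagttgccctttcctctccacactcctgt

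Ccnb2: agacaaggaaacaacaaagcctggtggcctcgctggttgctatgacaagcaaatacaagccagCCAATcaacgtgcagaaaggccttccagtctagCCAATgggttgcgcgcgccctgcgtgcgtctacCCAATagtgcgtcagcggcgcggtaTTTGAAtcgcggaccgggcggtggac

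Cdc25b: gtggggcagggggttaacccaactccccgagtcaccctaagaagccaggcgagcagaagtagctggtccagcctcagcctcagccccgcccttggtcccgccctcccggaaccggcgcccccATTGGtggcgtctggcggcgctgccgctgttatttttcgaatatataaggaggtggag

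Smc2: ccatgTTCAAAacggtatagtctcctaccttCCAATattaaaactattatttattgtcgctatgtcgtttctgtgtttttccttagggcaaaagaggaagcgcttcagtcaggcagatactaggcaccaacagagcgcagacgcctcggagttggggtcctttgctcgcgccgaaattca

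Arhgap19 carried 4 CCAAT motifs in this stretch, Ccnb2 carried 3, and Cdc20 and Ube2c carried 2 each, and each of these 4 genes had 1 TTTGAA. Cdc25b had 1 CCAAT and no TTTGAA, and Smc2 had 1 of each near the 5′ end of the stretch. A further TTTGAA of Smc2, on the other strand, begins 26 bases after the start, so that the end of the stretch cuts through it. Over all matched members, the median log2 fold change of 41BB+ against 41BB- cells at 24 h was 1.06 for the 27 with TTTGAA and 0.80 for the 7 without, a difference that was not tested.

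Before any culture, 41BB+ cells had higher RNA levels of 22 of the 40 genes and lower levels of 4 than 41BB- cells, by edgeR's quasi-likelihood test at an adjusted p under 0.05 (Benjamini-Hochberg, 13150 genes). Of all genes tested, 22.2% passed in the higher and 17.3% in the lower direction, so calls were common at this time. The median log2 fold change of the members was 1.23, against 0.01 over all genes tested. The members whose libraries did not overlap between the populations were 18 higher and 4 lower in 41BB+ cells, while 27.2% of all genes tested stood apart in the higher and 22.7% in the lower direction. Levels were low: the 39 members other than Smc4 shared 417 CPM in 41BB+ cells and 284 CPM in 41BB- cells.

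In the cyclin and CDK engine, 3 of 6 genes were higher and 1 lower. Ccna2 (ENSMUSG00000027715, GRCm38 chr3:36564865-36572150), which encodes the A-type cyclin of S phase and G2, had 14, 12 and 24 counts in the 41BB+ libraries and 3, 0 and 0 in the 41BB- libraries. The groups did not overlap, and the ratio of their summed counts per library total was 15 (95% counting interval 4.85 to 75.2), which covers counting error only (adjusted p = 1.48e-06). Cdk1, the kinase that A-type and B-type cyclins activate, summed to 48 counts in 41BB+ and 3 in 41BB- cells, a ratio of 14.4 (95% counting interval 4.64 to 72.3), adjusted p = 1.39e-05. Ccnb2, a B-type cyclin, rose with log2 fold change 2.06, SE 0.75, adjusted p = 0.0307, resting on 20 counts in 41BB+ and 4 in 41BB- cells. Its 41BB+ libraries had 1, 5 and 14 counts, and without replicate 3 the log2 fold change was 0.97 (adjusted p = 0.428). Cdc25b, the phosphatase that starts Cdk1 activation at the G2 to M boundary, went the other way, at 13.7 ± 4.76 CPM in 41BB+ cells, against 32.0 ± 4.18 CPM in 41BB- cells (log2 fold change -1.22, SE 0.22, adjusted p = 6.07e-05). For the APC/C activator Cdc20 and the ubiquitin-conjugating enzyme Ube2c the test was not passed, with log2 fold changes of 0.72 and 0.52. Ube2c (ENSMUSG00000001403, GRCm38 chr2:164769898-164778822) had 6, 3 and 4 counts in 41BB+ and 2, 4 and 2 in 41BB- libraries, which overlap.

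Among the 7 kinase and checkpoint genes, Aurkb, Bub1, Bub1b and Ttk were higher in 41BB+ cells. Bub1b (ENSMUSG00000040084, GRCm38 chr2:118598211-118641591), which encodes the checkpoint protein BubR1, stood at 19.7, 12.6 and 14.5 CPM in 41BB+ and 4.65, 4.54 and 3.92 CPM in 41BB- libraries. Every 41BB+ library was above every 41BB- library (log2 fold change 1.81, SE 0.22, adjusted p = 1.48e-07). Bub1, a checkpoint kinase at the kinetochore, summed to 21 counts in 41BB+ cells and 1 in 41BB- cells, a ratio of 18.9 (95% counting interval 3.04 to 782). Plk1, Aurka and Birc5 (survivin) did not pass, with log2 fold changes of 0.68, -0.02 and 0.52. Of the centromere genes, Cenpe (ENSMUSG00000045328, GRCm38 chr3:135212537-135273611), a kinetochore motor, had 19.1, 12.6 and 11.3 CPM in 41BB+ and 1.86, 6.16 and 5.13 CPM in 41BB- libraries, with no overlap (log2 fold change 1.69, SE 0.31, adjusted p = 9.06e-05), and Cenpf was higher too. Cenpa, the histone H3 variant of centromeres, was lower, at 8.10 ± 2.33 CPM in 41BB+ cells, against 19.2 ± 2.07 CPM in 41BB- cells (log2 fold change -1.25, SE 0.25, adjusted p = 0.000161).

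Of the 8 kinesins, Kif11, Kif18b, Kif20a and Kif2c were higher and Kif23 was lower in 41BB+ cells. Kif18b (ENSMUSG00000051378, GRCm38 chr11:102905529-102925124), a motor that shortens astral microtubules, had 17, 1 and 11 counts in the 41BB+ libraries and none in any 41BB- library. Against 3 counts over the 41BB- group, it was at least 8.70-fold higher in 41BB+ cells (adjusted p = 0.000332). Kif11 (ENSMUSG00000012443, GRCm38 chr19:37376403-37421859), the motor that separates the spindle poles, had 8.25, 3.43 and 8.94 CPM in 41BB+ and 2.79, 0.972 and 2.41 CPM in 41BB- libraries, with no overlap (log2 fold change 1.70, SE 0.38, adjusted p = 0.000618). Kif2c, a microtubule depolymerase of the centromere, summed to 15 counts in 41BB+ and 2 in 41BB- cells, a ratio of 6.75 (95% counting interval 1.57 to 60.9). Among the spindle assembly genes, Tpx2 and Prc1 were higher. Tpx2 (ENSMUSG00000027469, GRCm38 chr2:152847964-152895321), which activates Aurora A at the spindle, had 36, 17 and 17 counts in 41BB+ and 5, 0 and 4 in 41BB- libraries, with no overlap (log2 fold change 2.75, SE 0.47, adjusted p = 2.95e-05).

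Kif23 and Racgap1, whose proteins together form centralspindlin at the midzone of the dividing cell, were both lower in 41BB+ cells. Racgap1 (ENSMUSG00000023015, GRCm38 chr15:99620496-99651656) stood at 30.6, 22.9 and 20.0 CPM in 41BB+ and 61.0, 56.7 and 65.5 CPM in 41BB- libraries. No library overlapped, and the log2 fold change of -1.34 (SE 0.15, adjusted p = 1.84e-08) was the largest decrease among the 40 genes. Kif23 had 11.6 ± 2.25 CPM in 41BB+ cells, against 19.7 ± 4.09 CPM in 41BB- cells (log2 fold change -0.77, SE 0.21, adjusted p = 0.00326). Ect2, the RhoA activator that centralspindlin recruits, was higher with log2 fold change 0.77, SE 0.28, adjusted p = 0.0272. Arhgap19 (ENSMUSG00000025154, GRCm38 chr19:41766588-41802047), a RhoA-inactivating protein of dividing lymphocytes, had 8, 16 and 10 counts in 41BB+ and 9, 11 and 10 in 41BB- libraries. These overlap, its log2 fold change was 0.02, and it turned to -0.03 with DESeq2's size factors.

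All 6 genes of chromosome condensation were higher in 41BB+ cells at 0 h. Mki67 (ENSMUSG00000031004, GRCm38 chr7:135689784-135716361), which encodes the Ki-67 protein that coats mitotic chromosomes, had 25.6, 14.3 and 35.2 CPM in 41BB+ and 10.5, 4.86 and 12.4 CPM in 41BB- libraries. The lowest 41BB+ library stood above the highest 41BB- library (log2 fold change 1.42, SE 0.36, adjusted p = 0.00519). Top2a, the topoisomerase that untangles sister chromatids, averaged 47.0 ± 18.9 CPM in 41BB+ cells, against 11.5 ± 3.87 CPM in 41BB- cells (log2 fold change 2.01, SE 0.28, adjusted p = 1.51e-05). The condensin ATPase gene Smc2 (ENSMUSG00000028312, GRCm38 chr4:52439243-52488260) had 94.0, 71.8 and 79.4 CPM in 41BB+ and 35.0, 29.8 and 27.4 CPM in 41BB- libraries, with no overlap (log2 fold change 1.39, SE 0.13, adjusted p = 1.94e-09). Its partner Smc4 (ENSMUSG00000034349, GRCm38 chr3:69004738-69034623) was already abundant in both, with 685, 731 and 701 CPM in 41BB+ and 578, 551 and 563 CPM in 41BB- libraries, and differed by less (log2 fold change 0.31, SE 0.0958, adjusted p = 0.0101). The regulatory condensin I subunits Ncapd2 and Ncaph had log2 fold changes of 0.54 (SE 0.15) and 1.99 (SE 0.32). Fitting the 0 h libraries alone, where the filter on low counts kept 22 of the members, left 12 higher, and limma voom with quality weights left 14. All of these were among the 22, and the 4 lower calls held in both. Without some single library, or with voom, the calls of Ccnb2, Cenpf, Ect2, Kif20a, Kif2c and Prc1 were lost, as were those of Smc4 without some single library and of Bub1 and Mki67 with voom.

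**Figure D4:**
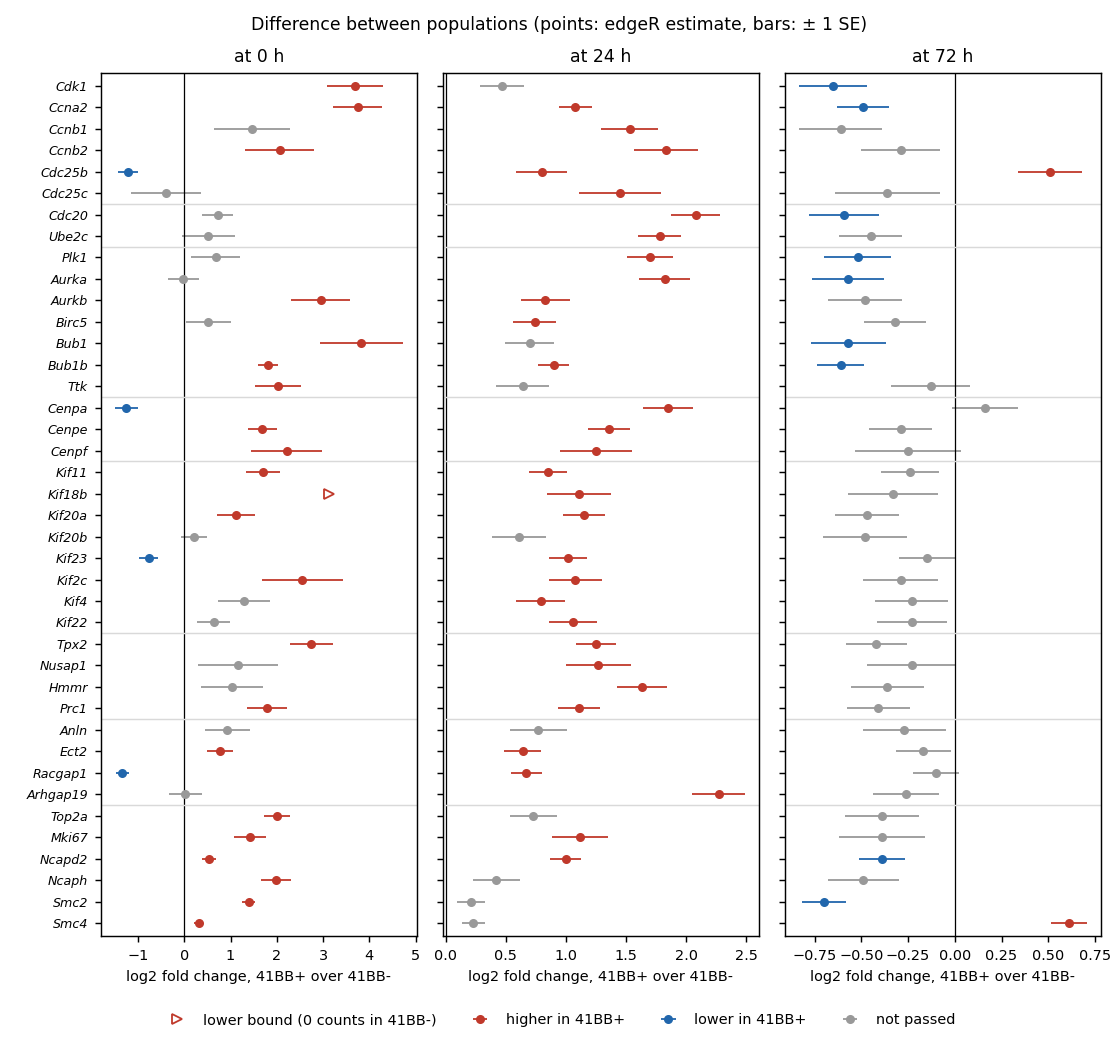
Log2 fold change of 41BB+ over 41BB- cells (x axis, with its own scale in each panel) for the 40 genes (rows, grouped by role) at 0, 24 and 72 h. Points are edgeR estimates, bars are 1 SE, red and blue mark genes called higher and lower in 41BB+ cells, grey marks genes that did not pass, and the open triangle is the lower bound of Kif18b. The points lie mostly right of 0 at 24 h, where 31 were called higher, and mostly left of 0 at 72 h, where 9 were called lower.

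After 24 h of activation, 31 of the 40 genes were higher in 41BB+ than in 41BB- cells. The background was low at this time: 1.67% of the genes tested were called higher and 1.07% lower. No member was called lower by edgeR's quasi-likelihood test, and the count of lower members was also 0 at an unadjusted p under 0.05 and with DESeq2. The median log2 fold change was 1.07 over the members, against 0.02 over all genes tested. In 38 members every 41BB+ library was above every 41BB- library, the exceptions being Smc2 and Smc4, and no member stood apart the other way. Of all genes tested, 6.40% stood apart in the higher and 14.1% in the lower direction. The ratio of the group means ran from 1.07 for Smc2 to 4.48 for Arhgap19, with a median of 1.94. With any 1 library left out, 22 to 25 members were called, and the calls lost in at least 1 such fit were those of Aurkb, Birc5, Cdc25b, Cdc25c, Cenpf, Ect2, Kif18b, Kif2c, Kif4, Mki67 and Nusap1. Those of Aurkb, Cenpf and Kif4 were lost in every such fit, and that of Cdc25b in every such fit but the 1 without 41BB+ replicate 1. Cenpf and Mki67 were not called either when low counts were left unfiltered.

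The 2 APC/C genes had the highest median log2 fold change of the 8 roles, 1.93. Ube2c had 78.8, 116 and 82.3 CPM in 41BB+ and 32.2, 24.4 and 31.2 CPM in 41BB- libraries. The groups lay far apart (log2 fold change 1.78, SE 0.18, adjusted p = 5.88e-07). Cdc20 averaged 74.3 ± 11.5 CPM in 41BB+ cells, against 19.1 ± 2.42 CPM in 41BB- cells (log2 fold change 2.08, SE 0.20, adjusted p = 4.79e-07). In the cyclin and CDK engine, 5 of 6 genes were higher and Cdk1 was not called, with a log2 fold change of 0.47 (SE 0.18, adjusted p = 0.227). Ccna2 had 231, 231 and 236 CPM in 41BB+ and 116, 124 and 116 CPM in 41BB- libraries, again without overlap (log2 fold change 1.08, SE 0.14, adjusted p = 2.65e-05). The B-type cyclins differed by more than Ccna2 in point estimate, with log2 fold changes of 1.53 (SE 0.23) for Ccnb1 and 1.83 (SE 0.27) for Ccnb2. Cdc25b, lower in 41BB+ cells at 0 h, was now higher, at 30.6 ± 5.52 CPM in 41BB+ cells, against 18.9 ± 2.28 CPM in 41BB- cells (log2 fold change 0.80, SE 0.21, adjusted p = 0.0342).

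Of the kinases and checkpoint genes, Plk1, Aurka, Aurkb, Birc5 and Bub1b were higher. Plk1 and Aurka, the kinases of centrosome maturation and mitotic entry, had log2 fold changes of 1.70 (SE 0.19) and 1.82 (SE 0.21), although neither had passed at 0 h. Bub1b had 146, 163 and 173 CPM in 41BB+ and 95.7, 97.2 and 86.4 CPM in 41BB- libraries, with no overlap (log2 fold change 0.90, SE 0.13, adjusted p = 9.86e-05). Bub1 and Ttk, both called at 0 h, did not pass at 24 h, with log2 fold changes of 0.70 and 0.64. All 3 centromere genes were higher. Cenpe had 213, 235 and 224 CPM in 41BB+ and 95.7, 107 and 81.2 CPM in 41BB- libraries, well apart (log2 fold change 1.36, SE 0.17, adjusted p = 5.02e-05), and Cenpa, lower at 0 h, stood at 49.3 ± 5.67 CPM in 41BB+ against 14.9 ± 5.00 CPM in 41BB- cells (log2 fold change 1.85, SE 0.21, adjusted p = 3.64e-06).

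All kinesins except Kif20b and all 4 spindle assembly genes were higher. Kif11 had 203, 244 and 236 CPM in 41BB+ and 146, 147 and 116 CPM in 41BB- libraries (log2 fold change 0.85, SE 0.16, adjusted p = 0.00225). Kif18b, absent from the 41BB- libraries at 0 h, had 44.2, 36.6 and 44.2 CPM in 41BB+ and 18.2, 27.9 and 15.9 CPM in 41BB- libraries (log2 fold change 1.11, SE 0.27, adjusted p = 0.0205). Neither gene's groups overlapped. Tpx2 had 184, 224 and 196 CPM in 41BB+ and 90.9, 92.4 and 91.7 CPM in 41BB- libraries (log2 fold change 1.25, SE 0.17, adjusted p = 6.97e-05). Hmmr, a microtubule-binding partner of Tpx2, had the largest difference of this role, with log2 fold change 1.63 (SE 0.21).

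Arhgap19 showed the largest difference of the 40 genes at 24 h. It had 39.4, 35.8 and 41.7 CPM in 41BB+ and 10.5, 10.2 and 5.40 CPM in 41BB- libraries. The lowest 41BB+ library was above the highest 41BB- library (log2 fold change 2.27, SE 0.22, adjusted p = 4.79e-07), while at 0 h the populations had overlapped. Racgap1 had 114, 107 and 116 CPM in 41BB+ and 74.7, 79.4 and 74.7 CPM in 41BB- libraries, with the order of 0 h turned round (log2 fold change 0.67, SE 0.13, adjusted p = 0.00273). Ect2 was higher too, and Anln, the actin-binding scaffold of the cleavage furrow, did not pass, with log2 fold change 0.77.

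Of the 6 condensation genes, 2 were higher. Mki67 had 1152, 1060.0 and 968 CPM in 41BB+ and 539, 631 and 408 CPM in 41BB- libraries (log2 fold change 1.12, SE 0.23, adjusted p = 0.0174), and Ncapd2 had log2 fold change 1.00 (SE 0.13). Smc2 had 264, 269 and 298 CPM in 41BB+ and 282, 264 and 232 CPM in 41BB- libraries, and Smc4 had 531, 545 and 561 CPM in 41BB+ and 512, 558 and 439 CPM in 41BB- libraries. Both sets overlap, and with log2 fold changes of 0.21 (SE 0.12) and 0.23 (SE 0.0959) neither passed. The 7 members called at 0 h and not at 24 h were Cdk1, Bub1, Ttk, Top2a, Ncaph, Smc2 and Smc4. Another 15 were higher at both times, 12 were higher at 24 h without having passed at 0 h, and 4 (Cdc25b, Cenpa, Kif23 and Racgap1) were lower at 0 h and higher at 24 h. With the experiment number as a block within each time, Bub1, Anln and Top2a were called higher as well.

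At 72 h, 9 of 40 genes were lower in 41BB+ than in 41BB- cells, 2 were higher and 29 did not pass. Of the 31 called higher at 24 h, 6 were called lower at 72 h. Of all genes tested, 12.2% were called lower and 6.71% higher. The median log2 fold change of the members was -0.36, against -0.04 over all genes tested, and 37 of 40 were negative. In 27 members every 41BB+ library was below every 41BB- library, and in 2, Cdc25b and Smc4, every 41BB+ library was above, while 20.5% of all genes tested stood apart in the lower and 11.3% in the higher direction. The ratio of the group means had a median of 0.757 and ran from 0.602 for Smc2 to 1.49 for Smc4. The count of 9 moved with single libraries: it was 2 without 41BB+ replicate 2, 5 without 41BB+ replicate 3, and 4, 2 and 5 without 41BB- replicates 1, 2 and 3. It was 17 with the experiment number as a block within each time, 7 with the same block shared by all times, 12 with DESeq2 and 18 with limma voom, and the 9 were among the 17 and the 18. It was 6 with DESeq2's size factors, where Plk1, Aurka and Bub1 were lost, 6 with no filter on low counts, where Ncapd2 was lost as well, and 6 with only the compared groups, where Cdc20, Plk1, Aurka and Ncapd2 were lost, and in each of the last 2 fits 1 further member was called. Without mitochondrial and ribosomal genes it was 9. Bub1b, Smc2 and Smc4 kept their calls with any 1 library left out.

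The 9 lower genes were Cdk1, Ccna2, Cdc20, Plk1, Aurka, Bub1, Bub1b, Ncapd2 and Smc2, none of them a kinesin, a spindle assembly gene or a cytokinesis gene. Every gene of these roles was negative too, with medians of -0.27 for kinesins, -0.39 for spindle assembly and -0.21 for cytokinesis genes. The condensation genes, with 2 of the calls, had a median of -0.39. Ccna2 had 179, 145 and 164 CPM in 41BB+ and 221, 244 and 236 CPM in 41BB- libraries. The groups did not overlap (log2 fold change -0.49, SE 0.14, adjusted p = 0.0128). Cdk1 averaged 64.3 ± 18.4 CPM in 41BB+ cells, against 104 ± 6.99 CPM in 41BB- cells (log2 fold change -0.65, SE 0.18, adjusted p = 0.0115), and Ccnb1 and Ccnb2 did not pass, at -0.61 and -0.29. Bub1b had 192, 145 and 187 CPM in 41BB+ and 273, 273 and 277 CPM in 41BB- libraries, with no overlap (log2 fold change -0.61, SE 0.12, adjusted p = 0.000823). Bub1b and Smc2 were the lower genes with the smallest adjusted p. Smc2 had 165, 167 and 187 CPM in 41BB+ and 263, 298 and 300.2 CPM in 41BB- libraries, the largest decrease of the 40 genes (log2 fold change -0.70, SE 0.12, adjusted p = 8.51e-05). Bub1 and Plk1, with adjusted p = 0.0451 and 0.0413, were no longer called with 1 block shared by all times.

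Smc4 and Cdc25b ran against the rest. Smc4 had 1176, 1136 and 1226 CPM in 41BB+ and 826, 811 and 744 CPM in 41BB- libraries. Its groups did not overlap (log2 fold change 0.61, SE 0.0954, adjusted p = 3.89e-05), so that the 2 ATPase subunits of condensin, Smc4 and Smc2, differed in opposite directions at this time. Cdc25b averaged 216 ± 36.3 CPM in 41BB+ cells, against 155 ± 23.4 CPM in 41BB- cells (log2 fold change 0.51, SE 0.17, adjusted p = 0.0374), a call that ended when 41BB+ replicate 3 or 41BB- replicate 2 or 3 was left out.

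Of the 29 members that did not pass at 72 h, Cenpa alone was positive, with a log2 fold change of 0.16. Mki67 had 1877, 1388 and 1774 CPM in 41BB+ and 2453, 2069.8 and 2256 CPM in 41BB- libraries, which do not overlap (log2 fold change -0.39, SE 0.23, adjusted p = 0.281). Tpx2 had 226, 169.6 and 199.8 CPM in 41BB+ and 267, 255 and 297 CPM in 41BB- libraries, and Ube2c had 77.4, 68.1 and 72.5 CPM in 41BB+ and 109, 111 and 86.1 CPM in 41BB- libraries. Their log2 fold changes were -0.42 (SE 0.16) and -0.45 (SE 0.17), and neither set overlaps. With the experiment number as a block within each time, Mki67 and Tpx2 were called lower, together with Ccnb1, Aurkb, Kif20a, Prc1, Top2a and Ncaph.

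Cenpe had 234, 187 and 294 CPM in 41BB+ and 292, 278 and 329 CPM in 41BB- libraries, and Kif11 had 352, 259 and 316 CPM in 41BB+ and 375, 403 and 346 CPM in 41BB- libraries. Both sets overlap, with log2 fold changes of -0.29 (SE 0.17) and -0.24 (SE 0.15). Kif18b had 69.1, 55.9 and 69.2 CPM in 41BB+ and 85.3, 80.8 and 83.5 CPM in 41BB- libraries, and Arhgap19 had 82.9, 67.2 and 78.4 CPM in 41BB+ and 89.0, 98.5 and 92.7 CPM in 41BB- libraries. These 2 do not overlap between the populations but did not pass the test, with log2 fold changes of -0.33 (SE 0.24) and -0.26 (SE 0.18). Racgap1 had 207, 190.0 and 242 CPM in 41BB+ and 238, 246 and 216 CPM in 41BB- libraries, which overlap (log2 fold change -0.10, SE 0.12, adjusted p = 0.654), and the sign turned without 41BB+ replicate 2, to 0.04.

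Over time, nearly the whole list rose in both populations. At 24 h against 0 h, 39 members rose and Smc4 fell in 41BB+ cells, where 18.1% of all genes tested rose and 16.5% fell. In 41BB- cells 36 rose and Cdc25b and Smc4 fell, where 29.0% of all genes rose and 27.6% fell. The median log2 fold change was 4.21 in 41BB+ and 4.61 in 41BB- cells. At 72 h against 0 h all 40 rose in both populations, with medians of 4.49 in 41BB+ and 6.40 in 41BB- cells, where 23.4% and 26.8% of all genes rose. Both comparisons of a population share its 0 h libraries. With Kif18b at its bound, the medians that it enters were also 1.23 for the populations at 0 h, and 4.61 and 6.40 in 41BB- cells. These medians could not move, because Kif18b lies above each of them at its bound too. The other members with few counts were left as they were. The fall of Smc4 at 24 h was not called in either population without a filter on low counts. In 41BB+ cells it was also lost without 0 h replicate 2 or 3 or any 1 of the 24 h libraries, and in 41BB- cells without any 1 of the 0 h libraries or 24 h replicate 1 or 3.

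From 24 to 72 h the changes differed between the populations. In 41BB- cells all 40 members rose, with a median log2 fold change of 1.71, where 22.6% of all genes tested rose. With 1 library left out at a time, 38 to 39 rose. The call of Smc2 was lost in every such fit, with DESeq2's size factors, with no filter on low counts and with only the compared groups. That of Cdk1 was lost with no filter and in every such fit but the 1 without 24 h replicate 1. In 41BB+ cells 17 rose and 4 fell, with a median of 0.34, where 26.2% rose and 26.3% fell. The 4 that fell were Cdk1 (log2 fold change -0.60, SE 0.18, adjusted p = 0.00663), Ccna2 (log2 fold change -0.45, SE 0.14, adjusted p = 0.0078), Kif20a (log2 fold change -0.42, SE 0.17, adjusted p = 0.0449) and Smc2 (log2 fold change -0.61, SE 0.12, adjusted p = 6.29e-05). Without 41BB+ 72 h replicate 2, 1 of these calls was left, that of Smc2. The fall of Kif20a was also lost with DESeq2's size factors, with DESeq2, and without 41BB+ 24 h replicate 2 or 3 or 72 h replicate 3. The largest rises in 41BB+ cells were those of Cdc25b (2.88, SE 0.19), Ccnb2 (1.64, SE 0.23), Cenpa (1.46, SE 0.18), Nusap1 (1.34, SE 0.25) and Smc4 (1.18, SE 0.0966). In 41BB- cells, the same 5 genes rose with log2 fold changes of 3.18 (SE 0.20), 3.76 (SE 0.26), 3.15 (SE 0.21), 2.85 (SE 0.27) and 0.81 (SE 0.0962). By role, 3 of 4 cytokinesis genes and 5 of 8 kinesins rose in 41BB+ cells, and so did 1 of 7 kinase and checkpoint genes. With 1 library left out at a time, 13 to 19 members rose in 41BB+ cells. The calls of Kif18b, Kif23, Ect2 and Mki67 were each lost in some of these fits, and the last 3 also with no filter on low counts.

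**Figure D5:**
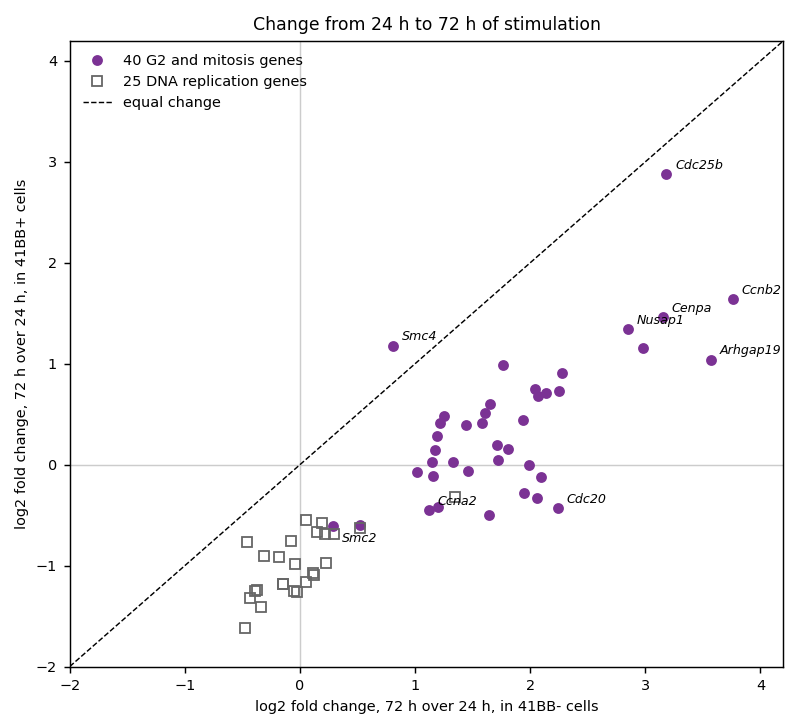
Log2 fold change of 72 h over 24 h in 41BB+ cells (y axis) against the same in 41BB- cells (x axis). Filled points are the 40 genes, open squares are 25 DNA replication genes, and the dashed line marks equal change. All of the 40 except Smc4 lie below the line, 39 in number, and most replication genes lie below 0 on the y axis.

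The difference between the populations in this step was itself tested as an interaction, in which a negative value means a smaller rise, or a fall, in 41BB+ cells. It was negative for 37 of 40 members past the threshold, where 11.4% of all genes tested were called negative and 6.10% positive, and the median was -1.41, against -0.07 over all genes. The largest differences were those of Cdc20 (-2.68, SE 0.28), Arhgap19 (-2.53, SE 0.28), Aurka (-2.39, SE 0.29), Ube2c (-2.23, SE 0.24) and Plk1 (-2.22, SE 0.26). Further negative values were those of Tpx2 (-1.67, SE 0.23), Cenpe (-1.65, SE 0.24), Ccna2 (-1.57, SE 0.20), Bub1b (-1.52, SE 0.18) and Mki67 (-1.52, SE 0.33). Kif18b (-1.44, SE 0.36), Kif11 (-1.10, SE 0.22), Smc2 (-0.91, SE 0.16) and Racgap1 (-0.77, SE 0.18) differed by less and still passed. The 3 members that did not pass were Cdc25b, Ttk and Smc4. No member was positive past the threshold with edgeR, and 1 was at an unadjusted p under 0.05 and with DESeq2. It was Smc4, with an adjusted p of 0.0537 in edgeR, of 0.0102 in DESeq2 and of 0.0354 with the experiment number as a block within each time. With 1 library left out at a time, 31 to 36 members were negative past the threshold.

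Over the first 24 h the interaction went both ways, and here the 0 h levels enter both sides. It was negative for 10 members and positive for 7, where 14.0% of all genes tested were negative and 9.03% positive. Cdk1 (-3.22, SE 0.66), Ccna2 (-2.66, SE 0.59), Tpx2 (-1.50, SE 0.53), Smc2 (-1.19, SE 0.18) and Bub1b (-0.91, SE 0.26) rose by less in 41BB+ cells, and their 0 h levels had been higher there. The value of Tpx2 no longer passed with only the compared groups, with voom or in 8 of the 12 fits with 1 library left out (-0.95 without 41BB- 0 h replicate 2), and that of Bub1b no longer passed with voom or without 41BB+ 0 h replicate 1. Cenpa (3.10, SE 0.33), Arhgap19 (2.25, SE 0.43) and Racgap1 (2.01, SE 0.20) had positive values. From 0 to 72 h the interaction was negative for 23 members and positive for 4, where 23.3% and 17.6% of all genes tested were called. The negative end held Kif18b, for which no size is given because its 41BB- counts at 0 h were 0, and Bub1 (-4.40, SE 0.90), Cdk1 (-4.34, SE 0.62) and Ccna2 (-4.24, SE 0.54), whose 41BB- counts at 0 h were 1, 3 and 3 over the group. Among the other negative members were Tpx2 (-3.18, SE 0.49), Bub1b (-2.42, SE 0.26), Smc2 (-2.09, SE 0.18), Cenpe (-1.98, SE 0.35), Kif11 (-1.95, SE 0.41) and Mki67 (-1.81, SE 0.42). The positive members were Cdc25b (1.73, SE 0.28), Racgap1 (1.24, SE 0.19), Cenpa and Kif23. Kif23 and Kif4 were no longer called with 1 block shared by all times, and Ccnb1, Kif22 and Anln were called as well with the block within each time. Both Kif23 and Kif4 were also lost with voom and in many fits with 1 library left out. Kif23 was lost too with no filter on low counts and without mitochondrial and ribosomal genes, and Kif4 with DESeq2's size factors and with only the compared groups. With 1 library left out at a time, 18 to 26 members were negative and 3 to 5 positive.

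Other genes of the same phase and genes of DNA replication were set beside the 40. Of 70 further G2 and mitosis genes, 32 were higher and 2 lower in 41BB+ cells at 0 h, 28 were higher at 24 h (median log2 fold change 0.65) and 15 were lower at 72 h. Among the extremes of that list were Nuf2, a kinetochore gene, at 0 h (4.30 ± 1.84 CPM in 41BB+ cells and 0.103 ± 0.179 CPM in 41BB- cells, adjusted p = 1.18e-06), Cdkn3, a CDK-associated phosphatase gene, at 24 h (log2 fold change 2.33, SE 0.52, adjusted p = 0.0103), and Cenpk, a centromere gene, at 72 h (log2 fold change -1.24, SE 0.33, adjusted p = 0.00809). The 41BB- mean of Nuf2 was near the floor, equal to that of Bub1, which had 1 count over the group. The lowest log2 fold change of that list at 0 h was -2.25. Of 25 DNA replication genes tested, 25 were higher in 41BB+ cells at 0 h (median 2.00), 1 was higher at 24 h (median 0.16) and 23 were lower at 72 h (median -0.78). For both lists, the shares of all genes tested were 22.2% higher and 17.3% lower at 0 h. They were 1.67% higher at 24 h and 12.2% lower at 72 h. At 24 h, 31 of the 40 members and 1 of the 25 replication genes were thus called higher in 41BB+ cells, a difference between lists that was not tested. For example, Mcm2, a subunit of the replicative helicase, stood at 351 ± 4.28 CPM in 41BB+ cells, against 353 ± 25.1 CPM in 41BB- cells at 24 h (log2 fold change 0.11, SE 0.11, adjusted p = 0.782). From 24 to 72 h, 24 of the 25 fell in 41BB+ cells, where 26.3% of all genes tested fell. In 41BB- cells 5 of the 25 fell, where 18.2% of all genes tested fell.

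Reads of some members may come in part from other genes, since no label or file used here says whether counting used strand or how reads that match several places were handled. Exons of a gene on the other strand cover 29.3% of the exon length of Kif20a (Cdc23), 22.8% of Ube2c (Tnnc2), 15.1% of Kif4 (Pdzd11), 12.7% of Cdc25c (Gm3550), 12.5% of Ccna2 (Exosc9) and 11.1% of Prc1 (Rccd1). Over all libraries the partners averaged 44.4 CPM for Cdc23, 66.8 CPM for Exosc9, 12.8 CPM for Rccd1, 11.8 CPM for Pdzd11, 3.75 CPM for Gm3550 and 0.0634 CPM for Tnnc2. Values of Ccnb1 are uncertain for another reason: its processed pseudogene Ccnb1-ps held 876 counts over all libraries, beside 2469 for Ccnb1.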

How the data were processed

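The 18 libraries of total RNA were stranded (SMARTer kit, per the labels' protocols). Per the submitters' processing notes, the authors used FastQC 0.11.9, Trimmomatic 0.38, HISAT2 2.2.1, featureCounts and GRCm38. Not given in the sources used here are the strand setting, the annotation release and the handling of multiply mapped reads. What was deposited is a table of raw read counts of 55487 Ensembl genes, of which 55227 had a symbol in GENCODE M21. Without molecular identifiers, bounds and 95% intervals cover counting error only.

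CPM were computed from the library totals. Genes were kept by filterByExpr (minimum count 10, minimum total 15), and 1 mean per group was fitted to all 18 libraries with edgeR 4.0.16 in R 4.3.3 (TMM, robust quasi-likelihood, common biological coefficient of variation 0.18). All 12 contrasts were adjusted by Benjamini-Hochberg over the 13150 genes, and every adjusted p is from edgeR unless another tool is named. Alternatives were DESeq2's size factors, no filter, no mitochondrial or ribosomal genes, only the compared groups, replicate blocks, limma 3.58.1 voom, DESeq2 1.42.0 and leaving out each library. A fold against 0 counts is a bound against 3 counts over the group.

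The titles give an experiment number, which was taken as pairing both populations at each time. Deviations of such pairs from their group means correlated at a median of 0.107 over 9 pairs (-0.043 to 0.243, above 0.1 in 5), against -0.0632 between other numbers of the same time, over 12686 genes. Deviations from a group mean cancel within the group, so higher values for such pairs force lower ones for the other pairs. The second median is therefore not a separate baseline. Replicates differed by 4.56 to 8.90 times the sampling variance, so none was a copy.

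The members and lists were chosen with earlier results of these data known. A further B cell marker is not reported here. Values of each library are printed for the member with the highest mean CPM of each role and for the largest called change in each direction between the populations at each time. Promoter windows and motifs came from RefSeq on GRCm38.p6.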

Additional observations from a re-analysis of the deposited data

Results flagged for a closer look

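The populations differed in their change over time, by the interaction term of edgeR's quasi-likelihood fit, which is negative where the rise is smaller in 41BB+ cells. Between 24 and 72 h, 37 members were negative and 0 positive, with 1 positive at an unadjusted p under 0.05 and with DESeq2. Of all genes tested, 11.4% were negative and 6.10% positive. The log2 differences were -2.68 for Cdc20, -2.53 for Arhgap19, -2.23 for Ube2c, -1.67 for Tpx2, -1.65 for Cenpe, -1.57 for Ccna2, -1.52 for Bub1b, -1.52 for Mki67, -1.44 for Kif18b, -1.10 for Kif11, -0.91 for Smc2 and -0.77 for Racgap1.

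Between 0 and 24 h, 10 members were negative and 7 positive, where 14.0% of all genes tested were negative and 9.03% positive. The log2 differences were -3.22 for Cdk1, -2.66 for Ccna2, -1.50 for Tpx2, -1.19 for Smc2 and -0.91 for Bub1b, and 3.10 for Cenpa, 2.25 for Arhgap19 and 2.01 for Racgap1.

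Between 0 and 72 h, 23 members were negative and 4 positive, where 23.3% of all genes tested were negative and 17.6% positive. The log2 differences were -4.40 for Bub1, -4.24 for Ccna2, -3.18 for Tpx2, -2.42 for Bub1b, -2.09 for Smc2, -1.98 for Cenpe, -1.95 for Kif11 and -1.81 for Mki67, and 1.73 for Cdc25b and 1.24 for Racgap1. The 3 comparisons share libraries, and those that start at 0 h rest on few counts for Bub1, Ccna2 and Cdk1 in 41BB- cells.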

How the results depend on the processing

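No called member changed direction under any alternative. The members called higher at 0 h were 12 with only the compared groups and 14 with voom. Those called lower at 72 h were 17 with the replicate block within time and 18 with voom, and 6 with DESeq2's size factors, with no filter and with only the compared groups. At 24 h against 0 h without a filter on low counts, 0 members fell in 41BB+ cells, where Smc4 was called by edgeR with the filter and by DESeq2, and 1 fell in 41BB- cells. The negative interaction over 0 to 24 h held 5 members with voom. The positive interaction over 24 to 72 h held 1 member, Smc4, with DESeq2's size factors, without mitochondrial and ribosomal genes, with only the compared groups, with the replicate block within time, with voom and with DESeq2. The replicate blocks changed no other call than those named in the report. Arhgap19 at 0 h, never called, turned to -0.03 with DESeq2's size factors, voom and DESeq2. The causes were not tested, except that fitting 0 h alone leaves 22 members tested.

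With single libraries left out, the 72 h counts were 1 to 2 higher and 2 to 6 lower, members falling from 0 to 24 h were 0 to 1 in 41BB+ and 1 to 2 in 41BB- cells, members falling from 24 to 72 h in 41BB+ cells were 1 to 5, and the positive interaction over 24 to 72 h held 0 to 1. Arhgap19 at 0 h ranged from -0.35 to 0.18 and Racgap1 at 72 h from -0.15 to 0.04. Of the calls between the populations, 19 of 26 at 0 h, 20 of 31 at 24 h and 3 of 11 at 72 h were kept in every such fit. At 0 h, 1 of the 40 members held under 10 counts over the 3 libraries of 41BB+ cells, and 14 did in 41BB- cells, which limits the precision of their folds.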

Other observations

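Smc4 and Smc2 encode the paired ATPases of condensin, yet their RNA levels per exon length were unequal in every group. At 0, 24 and 72 h, Smc4 stood at 135, 105 and 226 CPM per kb in 41BB+ cells and 108, 96.5 and 152 CPM per kb in 41BB- cells. Smc2 stood at 14.9, 50.6 and 31.6 CPM per kb in 41BB+ cells and 5.62, 47.4 and 52.4 CPM per kb in 41BB- cells. Smc4 was thus the more abundant of the pair in all 6 groups, by the largest ratio at 0 h.

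Across the 40 genes, the log2 fold change of 72 h over 24 h in 41BB+ cells followed that in 41BB- cells, with Pearson's r of 0.681 and Spearman's rho of 0.576 over 40 genes, which are not independent replicates and share library and depth within each group. The value was smaller in 41BB+ cells in 39 of 40.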
